A study of Mus musculus with 16 samples.

Results

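In first molar germs of mouse embryos, the difference between libraries with high and with low Pou3f3 was followed along the order of the libraries. Pou3f3 is a POU-domain transcription factor gene of the maxillary arch. All 16 RNA-seq libraries of the series were ordered by the code in their deposited names, which puts the libraries labelled upper from embryonic day ED14.5 to ED18.0 first and those labelled lower, ED14.5 to ED18.0, after them. Neighbours formed 8 pairs, numbered 1 to 8, and in each pair 1 library had Pou3f3 over 30 CPM (counts scaled to a library total of 1000000 gene counts) and the other under it. That gave 8 high-Pou3f3 and 8 low-Pou3f3 libraries, 16 of 16 in all. The quantity tested was the slope of the log2 difference, high minus low, on pair number, so a positive slope means that the high-Pou3f3 library gained on its neighbour from pair 1 to pair 8. The groups were chosen by the measured Pou3f3 values, which are given as a description.

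Per the labels, each library held the pooled left and right first molar germs of 1 wild-type CD1 embryo, CD1 being an outbred strain, and every embryo was labelled male. The labels give no mutation or treatment, and each tooth label and stage had 1 library. The low-Pou3f3 libraries were labelled ED14.5, ED15.5, ED16.5 and ED17.5 and the high-Pou3f3 libraries ED15.0, ED16.0, ED17.0 and ED18.0, under both tooth labels. The high-Pou3f3 library of a pair was therefore always labelled 0.5 days older, and Pou3f3 group and that step in labelled age cannot be told apart. Pairs 1 to 4 were labelled upper and ran on 1 flow cell, and pairs 5 to 8 were labelled lower and ran on another, so that file order, tooth label and flow cell cannot be told apart in the slope over all 8 pairs. Within a flow cell, pair number follows the labelled stage and the lane, with pairs 1 and 2, 3 and 4, 5 and 6, and 7 and 8 on a lane each. The jaw genes went against the tooth labels, since Pou3f3 and Nkx2-3 alternated from library to library inside each label. The groups are named here by their Pou3f3 level, and no jaw is assigned to them. If the tooth or stage labels are wrong for some libraries, the 0.5-day step and the embryo taken from the labels are wrong there as well. If the neighbours of a pair were both teeth of 1 stage, pair number would be the order of stages over all 8 pairs, which was not tested.

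The first pharyngeal arch gives rise to both jaws. Its mandibular part expresses the homeobox genes Dlx5 and Dlx6, which lie beside each other and specify lower jaw identity, while its maxillary part expresses Pou3f3 and lacks them. A tooth germ is built from epithelium and neural crest derived mesenchyme that exchange Wnt, Bmp, Fgf and Hedgehog signals, many of them sent from the enamel knot, an epithelial center that shapes the cusps. A gene whose difference between the Pou3f3 groups is the same in every pair has a slope of 0, however large the difference is.

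Pou3f3 (chromosome 1, 42695768 to 42700210, RefSeq on GRCm38.p6, as all gene positions here) measured 132, 119, 112, 109, 86.2, 70.7, 64.6 and 60.1 CPM in the high-Pou3f3 libraries of pairs 1 to 8. The low-Pou3f3 libraries measured 9.96, 8.24, 6.45, 10.1, 4.89, 5.14, 5.46 and 4.45 CPM. The values nearest the threshold of 30 CPM were 60.1 CPM above it and 10.1 CPM below it. Both groups were lower in pairs 5 to 8 than in pairs 1 to 4, with no overlap between the groups, and the fitted line of the log2 difference ran from 3.85 at pair 1 to 3.71 at pair 8. Nkx2-3 (chromosome 19, 43612325 to 43615892), a homeobox transcription factor gene that was chosen with the rule, ran the opposite way. Its low-Pou3f3 libraries measured 53.1, 56.2, 46.7, 39.4, 31.5, 31.3, 22.4 and 19.2 CPM, and its high-Pou3f3 libraries at most 0.112 CPM. Nkx2-3 was thus close to 0 in each high-Pou3f3 library and declined along the order in the low-Pou3f3 libraries, and the slope of its log2 difference is not given because that group had at most 5 counts per library.

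**Figure D1:**
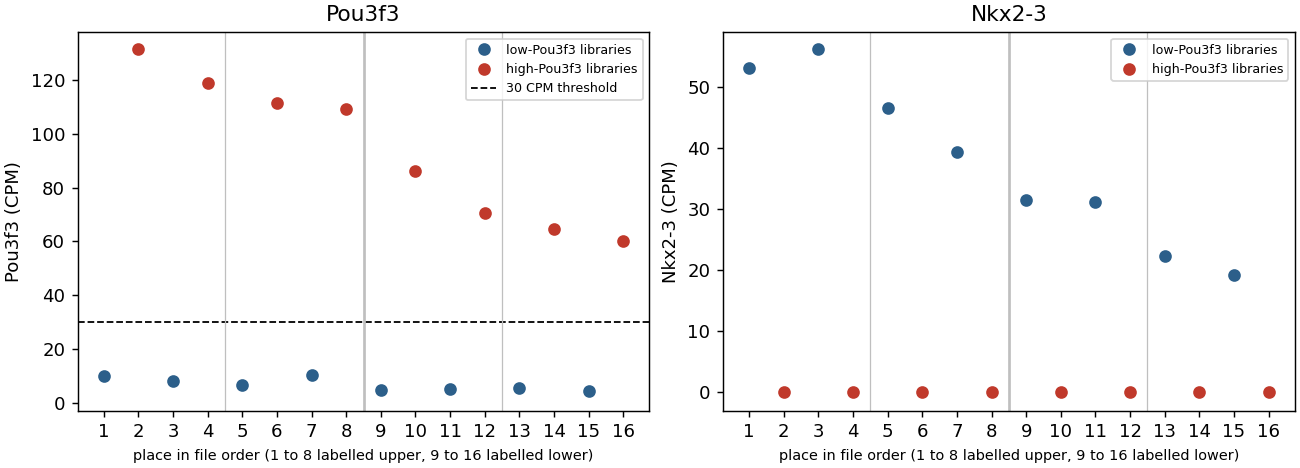
Pou3f3 (left) and Nkx2-3 (right) in CPM against the place of the library in the file order, with places 1 to 8 labelled upper and 9 to 16 labelled lower; points are single libraries, red for high-Pou3f3 and blue for low-Pou3f3, the thick grey line parts the flow cells and the thin grey lines part the lanes. Red and blue alternate at each place, Pou3f3 stays at 60.1 CPM or more in the red points, and Nkx2-3 stays at 0.112 CPM or less there.

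Gene counts totalled 33146758 to 44565205 per library, with 33146758 to 44565205 in the high-Pou3f3 and 33939255 to 40021946 in the low-Pou3f3 libraries, and 10 counts at the median depth are 0.269 CPM. Both tissues of a tooth germ were present in all 16 libraries, with Krt14, a keratin gene of basal epithelium, at 410.9 to 858.7 CPM and Cdh1, the epithelial cadherin gene, at 140.5 to 238.4 CPM. The mesenchyme genes Msx1 and Prrx1 measured 55.6 to 252.1 CPM and 152.5 to 628.2 CPM. The sex label was in doubt, since Xist, the noncoding RNA of X inactivation, measured 1499 CPM or more in 7 pairs. The 4 Y-linked genes examined had 2 counts in all 16 libraries together. These 2 counts were of Ddx3y in 1 library, so reads could be assigned to at least that Y-linked gene. High Xist and few Y-linked counts went against the label male, and the sex was not tested otherwise. Pair 5 stood apart with 431.8 and 542.3 CPM of Xist, and the slope test called 155 genes without that pair against 159 with it. The RNA comes from whole germs, so fewer cells of a type and less RNA per cell cannot be told apart in any value given here.

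Whether the libraries of a pair drifted apart as a whole was asked first, with the SD over 16287 genes of the log2 difference within a pair. It was 0.375, 0.427, 0.421, 0.474, 0.386, 0.365, 0.454 and 0.40 in pairs 1 to 8, lowest in pair 6 and highest in pair 4. Genes that differed by over 2-fold within a pair numbered 443 in pair 6 and 856 in pair 4, and the other 6 pairs lay between. Pearson's r with pair number was 0.0365 (exact two-sided permutation p = 0.929, adjusted over both coefficients 0.977) and Spearman's rho 0.0238 (exact permutation p = 0.977), and r was -0.161 without the 2 pairs farthest from the median, so no trend in overall distance was detected over 8 pairs. The 4 pairs of a flow cell are too few for a correlation within it.

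Individual genes did change their difference along the order. Of 16287 genes tested, 159 passed (0.976% of genes, edgeR's quasi-likelihood F test with Benjamini-Hochberg adjustment, threshold 0.05), 72 with a positive slope (0.442%) and 87 with a negative slope (0.534%), while 1868 had an unadjusted p under 0.05. These counts over all genes are the background for the edgeR counts in every gene list below. Genes of the mandibular arch, 2 transcription factors of the dental mesenchyme, Fgf10 and the Wnt modulators Dkk4 and Rspo2 were among those in which the high-Pou3f3 library gained. Cyp26a1, Msx2, Satb1, Tgfb1, Wnt5a and the macrophage genes Mrc1 and C1qa were among those in which it lost. In 125 of the 159 genes the fitted line of the difference crossed 0 between pair 1 and pair 8, which is a statement on the line, since single pairs could lie on 1 side of 0 throughout. The difference grew in 14 genes and shrank without crossing in 20. Among the 72 genes with a positive slope the fitted change along the order was steeper in the high-Pou3f3 libraries for 41 and in the low-Pou3f3 libraries for 31. For the 87 with a negative slope it was steeper in the low-Pou3f3 libraries for 69 and in the high-Pou3f3 libraries for 18.

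These calls could not be separated from the contrast between the flow cells. With a separate group difference for each flow cell, the slope within flow cells called 0 genes by edgeR (1444 at an unadjusted p under 0.05, lowest adjusted p 0.205), although all 159 genes kept their sign and 74 of them had an unadjusted p under 0.05. The same sign was found for 61.4% of all 16287 genes; the 159 were chosen on these same libraries, so their shared sign is no independent support. A step between the flow cells in place of a slope called 353 genes, of which 107 were among the 159. Pairs 1 to 4 alone called 130 genes, 3 of them among the 159, and pairs 5 to 8 alone called 0 (931 at an unadjusted p under 0.05, lowest edgeR adjusted p 0.0517). The labels tie the upper and lower germs of each stage to a single embryo. With the embryo as the block in place of the pair edgeR called 0 genes (799 at an unadjusted p under 0.05), with the same sign for 158 of the 159. Each embryo had 1 library in each flow cell, always the same number of pairs apart. That fit therefore compares the group difference between the flow cells and uses no order within a flow cell. This block holds only as far as those labels do. DESeq2's Wald test with the pair as the block called 268 of the 16287 genes, 146 of the 159 among them, and gave no adjusted p for 1579. That count over all genes is the background for the DESeq2 counts in the gene lists below. Single pairs also weighed on the count, which was 401 without pair 1, 18 without pair 2, 73 without pair 3, 77 without pair 6, 79 without pair 7 and 22 without pair 8 (edgeR). Only 9 genes passed whichever 1 of the 8 pairs was left out, namely Dlx6as1, Dlx5, Tfap2b, Spnb1, Magel2, Cxcr7, Myh14, Pla2g7 and Irx5.

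**Figure D2:**
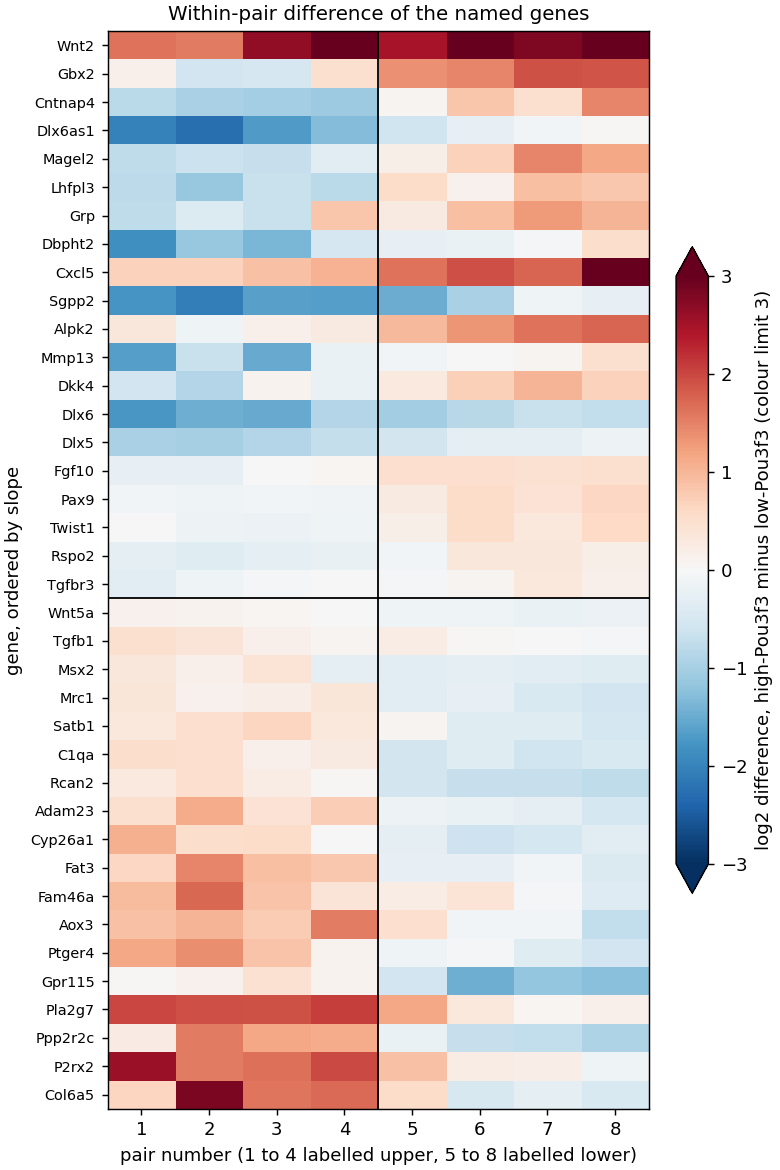
Log2 difference, high-Pou3f3 minus low-Pou3f3, in each of the 8 pairs (columns) for the 38 named genes past the threshold (rows, ordered by slope, with the black horizontal line parting positive from negative slopes and the vertical line parting the flow cells); colours are limited at 3. Most rows change colour at some place between pairs 1 and 8. Wnt2, Cxcl5 and Pla2g7 stay above 0 (red) in all 8 pairs, and Dlx5, Dlx6 and Sgpp2 stay below it (blue).

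The jaw genes Dlx5, Dlx6 and Dlx6as1 were higher in the low-Pou3f3 library of the early pairs, and that difference was smaller in the late pairs. The homeobox gene Dlx5 (chromosome 6, 6877801 to 6882068) measured 54.1, 77.5, 86.9, 116, 149.7, 171, 164 and 178 CPM in the low-Pou3f3 libraries of pairs 1 to 8. The high-Pou3f3 libraries measured 27.6, 38.9, 47.7, 70.7, 102, 139.9, 137 and 164 CPM. Dlx5 was thus higher late than early in both groups, and it was higher in the low-Pou3f3 library of all 8 pairs. Its slope was 0.14 ± 0.011 log2 per pair step (SE, 8 pairs, edgeR adjusted p = 0.000347), and the fitted difference went from -1.07 to -0.12 on the log2 scale. Within flow cells the slope was 0.11 (edgeR adjusted p = 0.257).

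Dlx6as1, a long noncoding RNA gene (chromosome 6, 6820543 to 6871627, Dlx6os1 in RefSeq), changed more. It measured 37.7, 34.1, 64.2, 94.6, 146, 155, 181 and 209 CPM in the low-Pou3f3 libraries. In the high-Pou3f3 libraries it measured 9.21, 7.08, 19.8, 38.4, 95.2, 131, 171 and 218 CPM. The log2 difference was -2.03 in pair 1 and 0.035 in pair 8, the 1 pair in which the high-Pou3f3 library was higher. The slope was 0.36 ± 0.028 (edgeR adjusted p = 0.000347, at most 0.00305 without any 1 pair) and 0.24 within flow cells (edgeR adjusted p = 0.205). Its promoters are shown because Dlx proteins are known to bind the letters TAATTA, which stand in capitals; each line gives 250 bases before to 50 bases after an annotated start, 5′ to 3′ on the minus strand, from RefSeq on GRCm38.p6, and the table had no entry for Dlx5 or Dlx6.
Dlx6as1 upstream start, chr6:6869484-6869783: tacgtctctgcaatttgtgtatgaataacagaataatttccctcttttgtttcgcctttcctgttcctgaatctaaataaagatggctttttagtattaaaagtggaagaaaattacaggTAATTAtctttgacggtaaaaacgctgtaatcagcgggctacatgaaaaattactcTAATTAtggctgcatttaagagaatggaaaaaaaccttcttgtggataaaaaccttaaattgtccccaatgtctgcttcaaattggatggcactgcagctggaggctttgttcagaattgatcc
Dlx6as1 downstream start, chr6:6861634-6861933: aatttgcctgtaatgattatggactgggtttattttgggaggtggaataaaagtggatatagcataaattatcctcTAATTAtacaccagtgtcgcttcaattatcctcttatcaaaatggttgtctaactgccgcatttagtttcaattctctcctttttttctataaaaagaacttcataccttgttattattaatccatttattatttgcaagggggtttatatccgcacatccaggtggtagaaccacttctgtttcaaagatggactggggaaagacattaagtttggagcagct
The first holds TAATTA at 2 places and the second at 1. The letters, which read the same on both strands, occur in 1738 of the 32851 promoters of this length in the table (5.29%). A match describes these letters and does not show binding.

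Dlx6 (chromosome 6, 6863334 to 6867970), the neighbouring homeobox gene, lies inside the span of Dlx6as1, and the library kit did not mark strand, so the counts of these genes could not be told apart with certainty. Its low-Pou3f3 libraries measured 14.3, 9.38, 8.9, 7.28, 13, 13.9, 14.6 and 21.3 CPM. The high-Pou3f3 libraries measured 4.2, 3.36, 3.11, 3.95, 6.22, 7.75, 9.23 and 12.9 CPM, below their neighbour in all 8 pairs. The fitted difference shrank from -1.65 to -0.57, a slope of 0.15 ± 0.025 (edgeR adjusted p = 0.0186, up to 0.0731 without pair 2, 7 or 8). Gbx2 (chromosome 1, 89927962 to 89931176), a homeobox gene, behaved differently from the Dlx genes. It measured 0.617, 0.389, 1.13, 2.8, 3.17, 1.97, 0.919 and 0.475 CPM in the low-Pou3f3 and 0.70, 0.244, 0.785, 3.92, 8.19, 5.49, 3.59 and 1.93 CPM in the high-Pou3f3 libraries. The high-Pou3f3 library was the higher one in pair 1 and from pair 4 on. The slope was 0.40 ± 0.072 (edgeR adjusted p = 0.0284, up to 0.0959 without pair 2, 3, 6, 7 or 8).

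Of the 11 mandibular arch genes listed beside Nkx2-3, 9 were tested and 4 passed, all with a positive slope: Dlx5, Dlx6, Dlx6as1 and Gbx2. Over all genes tested, 0.442% passed with a positive slope. Dlx5, Dlx6 and Dlx6as1 are neighbours on chromosome 6, so their calls are not separate observations. The list was also written with earlier results of these data known. The list's median slope was 0.067, beside 4.34e-05 over all genes tested. Values for 3 of the other members were 0.028 ± 0.017 for Pitx1 (edgeR adjusted p = 0.599), 0.067 ± 0.023 for Dlx4 (0.251) and -0.027 ± 0.015 for Dlx3 (0.55). Of the 6 maxillary arch and palate genes beside Pou3f3, 0 passed in edgeR and 2 had an unadjusted p under 0.05, with a median slope of 0.021, while DESeq2 called Osr2 and Tbx22. Osr2, a zinc finger transcription factor gene of palate and tooth, came nearest, at 0.093 ± 0.022 (edgeR adjusted p = 0.0761). It was lower in the high-Pou3f3 library of pairs 1 to 5 and higher in pairs 6 to 8, at 135 against 109.8 CPM in pair 1 and 72.9 against 86.7 CPM in pair 8.

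**Figure D3:**
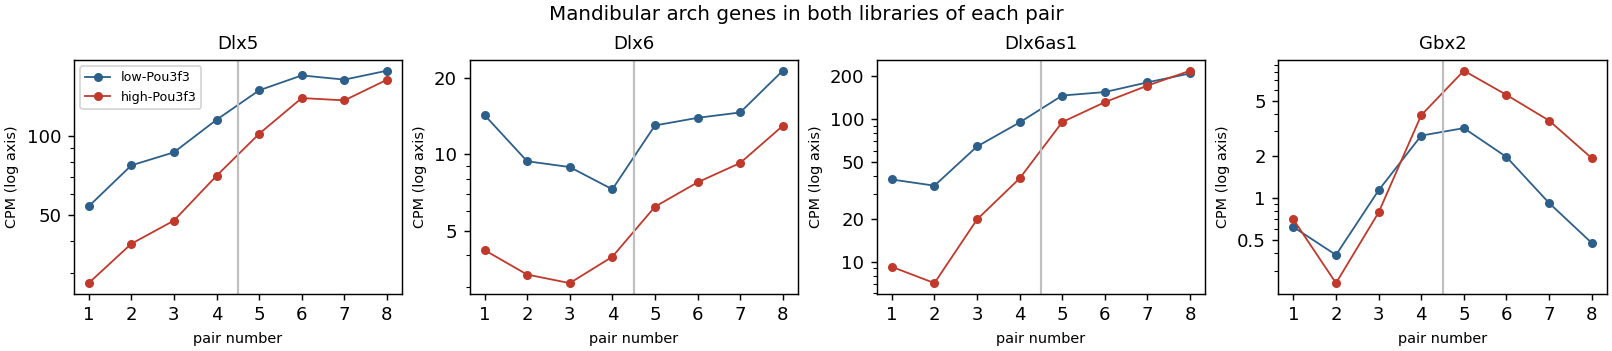
Dlx5, Dlx6, Dlx6as1 and Gbx2 in CPM (log axis) in the low-Pou3f3 (blue) and high-Pou3f3 (red) library of each pair; each point is 1 library and the grey line parts the flow cells. The lines of the Dlx genes approach each other from pair 1 to pair 8, from 54.1 and 27.6 CPM to 178 and 164 CPM for Dlx5, and those of Gbx2 part after pair 4.

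The transcription factor genes Pax9 and Twist1 of the dental mesenchyme had low values in the late low-Pou3f3 libraries and higher ones in the late high-Pou3f3 libraries. Pax9 (chromosome 12, 56691693 to 56712824), needed in mesenchyme for teeth to pass the bud stage, measured 138, 143, 142, 144, 116, 90.6, 81.3 and 66 CPM in the low-Pou3f3 libraries. The high-Pou3f3 libraries measured 132, 130.5, 136, 135, 139, 133, 109.7 and 104 CPM. The high-Pou3f3 library was the lower one in pairs 1 to 4 and the higher one in pairs 5 to 8. The slope was 0.12 ± 0.018 (edgeR adjusted p = 0.012, up to 0.0806 without pair 2 or 8), but 0.046 within flow cells (edgeR adjusted p = 0.644), with the log2 difference at -0.10 in pair 4 and 0.27 in pair 5. Twist1, a basic helix-loop-helix gene of cranial mesenchyme, had the same shape, at 105 and 105 CPM in pair 1 and 58.8 and 90.6 CPM in pair 8 in the low-Pou3f3 and high-Pou3f3 library. Its slope was 0.11 ± 0.022 (edgeR adjusted p = 0.0423, up to 0.232 without pair 2, 3, 5, 6, 7 or 8). These were the 2 of 21 dental mesenchyme genes that passed in edgeR, while DESeq2 called 4, adding Lhx6 and Lhx8, and the median slope was 0.020. Lhx6 and Lhx8, LIM homeobox genes of oral mesenchyme, had slopes of 0.060 ± 0.014 and 0.062 ± 0.015 (edgeR adjusted p = 0.0698 and 0.0939), and Msx1 and Prrx1 had -0.0089 ± 0.013 and 0.033 ± 0.013 (0.872 and 0.366).

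Msx2 went the other way. This homeobox gene, active in the enamel knot and in mesenchyme, measured 25.5, 39.2, 48.4, 71.5, 123, 138, 169 and 238 CPM in the low-Pou3f3 libraries. In the high-Pou3f3 libraries it measured 32.6, 43.3, 64.3, 59, 98.4, 114, 135 and 190.0 CPM. The high-Pou3f3 library was higher in pairs 1 to 3 and lower in pairs 4 to 8, a slope of -0.11 ± 0.022 (edgeR adjusted p = 0.0446, up to 0.139 without pair 1, 2, 3, 6, 7 or 8). The call also ended with a filter at 8 libraries (edgeR adjusted p = 0.0508) and with library totals in place of TMM (0.0579). With Pax9 it made up the 2 of 19 other homeobox and patterning genes that passed in edgeR, 1 in each direction (DESeq2 called 5, adding Lhx6, Lhx8 and Osr1), and the list's median slope was 0.00075. Among these, Barx1, a homeobox gene of molar mesenchyme, had a slope of 0.00075 ± 0.015 (edgeR adjusted p = 0.993). The summed level of the dental mesenchyme list was higher in the high-Pou3f3 library of 8 of 8 pairs. This difference was only 0.013 on the log2 scale in pair 1, against 0.20 to 0.37 in pairs 2 to 8. The summed level of the dental epithelium list was lower in the high-Pou3f3 library of 8 of 8 pairs. The dental epithelium list was at 7249 to 8939 CPM in the low-Pou3f3 and 5759 to 7052 CPM in the high-Pou3f3 libraries. Its 20 genes had a median slope of 7.3e-05 and 0 passed (edgeR and DESeq2, 4 at an edgeR unadjusted p under 0.05), with Sp6, a zinc finger gene of dental epithelium, nearest at -0.10 ± 0.028 (edgeR adjusted p = 0.157). What part the balance of epithelium and mesenchyme had in the slopes was not tested.

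Among the signals, 4 Wnt pathway genes and Fgf10 passed, and most members of both pathways did not. Wnt ligands act through Frizzled receptors, R-spondins such as Rspo2 raise the response and Dkk proteins such as Dkk4 block the coreceptor. Of 41 Wnt pathway genes, 4 passed in edgeR, against 0.976% of all genes in edgeR. Slopes were positive for Wnt2, Dkk4 and Rspo2 and negative for Wnt5a, and the list's median slope was 0.024. DESeq2 called 5, Apcdd1, Dkk4, Rspo2, Sfrp4 and Wnt5a. The ligand gene Wnt2 (chromosome 6, 17985474 to 18032772) measured 3.09, 1.81, 0.593, 0.236, 0.215, 0.0756, 0.111 and 0.050 CPM in the low-Pou3f3 libraries. In the high-Pou3f3 libraries it measured 9.65, 5.4, 4.07, 2.96, 1.44, 1.19, 1.09 and 1.11 CPM, above its neighbour in all 8 pairs. Late values were lower than early ones in both groups, most of all in the low-Pou3f3 libraries, where pair 8 had 2 counts, and the log2 difference grew with a slope of 0.40 ± 0.081 (edgeR adjusted p = 0.0423, up to 0.157 without pair 1, 2, 3, 6, 7 or 8, and 0.0625 in DESeq2). Dkk4, a Wnt antagonist of the enamel knot, measured 10.3, 8.09, 6.1, 7.63, 8.11, 7.41, 4.93 and 4.5 CPM in the low-Pou3f3 and 6.94, 4.34, 6.56, 6.61, 9.96, 12.2, 10 and 7.43 CPM in the high-Pou3f3 libraries. Its high-Pou3f3 library was higher in pair 3 and in pairs 5 to 8, a slope of 0.25 ± 0.039 (edgeR adjusted p = 0.0139, up to 0.0584 without pair 2).

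Rspo2 went from 24.9 to 97.9 CPM in the low-Pou3f3 and from 20.7 to 113 CPM in the high-Pou3f3 libraries of pairs 1 and 8. The order within a pair turned over at pair 6, and the slope was 0.10 ± 0.019 (edgeR adjusted p = 0.0289, up to 0.122 without pair 2, 3, 7 or 8). Wnt5a, a ligand of mesenchyme, had the slope nearest 0 of the 4, -0.049 ± 0.0085 (edgeR adjusted p = 0.0221, up to 0.0941 without pair 2, 3, 6, 7 or 8), at 172 to 283 CPM (median 254) in the low-Pou3f3 and 189 to 266 CPM (median 239) in the high-Pou3f3 libraries. Its high-Pou3f3 library was the higher one in pairs 1 to 4 and the lower one in pairs 5 to 8. Targets of the pathway gave 0.018 ± 0.016 for Axin2 (edgeR adjusted p = 0.761), 0.015 ± 0.015 for Lef1 (0.805) and 0.053 ± 0.013 for Nkd1 (0.103).

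Fgf10 (chromosome 13, 118714699 to 118792573), a growth factor that mesenchyme sends to epithelium, was the 1 of 24 Fgf pathway genes that passed in edgeR, while DESeq2 called 4, Fgf10, Fgf20, Fgfr3 and Spry1. It measured 24.2, 29.9, 32.4, 35.5, 33, 33.3, 32.3 and 31.2 CPM in the low-Pou3f3 libraries. The high-Pou3f3 libraries measured 20.5, 25, 32.5, 36.9, 46.5, 47.1, 44.3 and 44.7 CPM. The high-Pou3f3 library started lower, drew level at pair 3 and was higher in pairs 4 to 8. The slope was 0.13 ± 0.019 (edgeR adjusted p = 0.012, up to 0.0638 without pair 2) and 0.050 within flow cells (edgeR adjusted p = 0.65). The list had a median slope of 0.036, with 19 of 24 slopes positive and 10 at an unadjusted p under 0.05. Over all 16287 genes tested, 8160 slopes were positive and 1868 genes had an unadjusted p under 0.05 in edgeR. Its ligands of the enamel knot gave 0.23 ± 0.051 for Fgf20 (edgeR adjusted p = 0.0592), 0.27 ± 0.082 for Fgf4 (0.185) and -0.050 ± 0.029 for Fgf9 (0.574), and the feedback genes 0.13 ± 0.028 for Dusp6 (0.0661) and 0.086 ± 0.020 for Spry1 (0.0698). Of 19 enamel knot genes, Dkk4 passed with a positive and Msx2 with a negative slope in edgeR, DESeq2 also called Fgf20, and the median was 0.044. Shh, the Hedgehog ligand of the knot, had a slope of -0.030 ± 0.039 (edgeR adjusted p = 0.858).

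In the activin and Tgfb pathway 2 of 15 genes passed, and they moved in opposite directions. Tgfb1, a ligand, measured 55.6, 47.5, 42.7, 44.2, 51.1, 53.1, 62.8 and 66.5 CPM in the low-Pou3f3 and 78.4, 62.3, 47.9, 46.7, 58.8, 54, 62.9 and 65.3 CPM in the high-Pou3f3 libraries. The excess of the high-Pou3f3 library, 0.49 on the log2 scale in pair 1, was -0.054 in pair 8, a slope of -0.072 ± 0.012 (edgeR adjusted p = 0.0205, up to 0.0941 without pair 1, 2, 6, 7 or 8). Tgfbr3, the coreceptor betaglycan, had a slope of 0.070 ± 0.014 (edgeR adjusted p = 0.0363, up to 0.115 without pair 1, 2, 3, 6, 7 or 8), at 27.8 to 39.8 CPM in the low-Pou3f3 and 28.7 to 38.3 CPM in the high-Pou3f3 libraries, which overlapped. Cyp26a1 (chromosome 19, 37697738 to 37701536), an enzyme that degrades retinoic acid, was the 1 of 15 retinoic acid genes that passed in edgeR, and DESeq2 also called Crabp2. It measured 12.5, 18.4, 26.6, 45.4, 69.3, 102, 102 and 97.5 CPM in the low-Pou3f3 libraries. Its high-Pou3f3 libraries measured 26.2, 26.6, 39.5, 45.6, 57.3, 67, 71.3 and 80.2 CPM. Late values exceeded early ones in both groups, the low-Pou3f3 library led from pair 5 on, and the slope was -0.21 ± 0.033 (edgeR adjusted p = 0.012, up to 0.0617 without pair 2). Aldh1a2, which makes retinoic acid, had a slope of -0.16 ± 0.047 (edgeR adjusted p = 0.151), and Crabp2, a retinoic acid binding protein gene, one of 0.089 ± 0.019 (0.0562).

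The other signalling lists held no gene past the threshold in edgeR, and DESeq2 called 1, the Bmp gene Bambi. Of 28 Bmp pathway genes 7 had an unadjusted p under 0.05, with Chrdl2, a Bmp antagonist, nearest at 0.27 ± 0.060 (edgeR adjusted p = 0.062). Of 13 Hedgehog genes 2 did. Of 9 Eda pathway genes 3 did, with the receptor gene Edar at 0.067 ± 0.025 (edgeR adjusted p = 0.301), and of 16 Notch genes 1 did, with the target gene Heyl at -0.078 ± 0.033 (0.377). Their median slopes were -0.015, 0.0071, 0.020 and 0.0015. Over all 16287 genes tested, 1868 had an unadjusted p under 0.05. Of 25 cell cycle genes, 12 genes of hypoxia and glycolysis and 15 immediate early or heat shock genes 0 passed in edgeR or DESeq2, with 0, 1 and 1 at an unadjusted p under 0.05. The nearest were the kinase gene Cdk1 at 0.018 ± 0.013, the immediate early gene Egr2 at 0.16 ± 0.051 and Bnip3, a gene induced by hypoxia, at -0.038 ± 0.011 (edgeR adjusted p = 0.685, 0.195 and 0.158).

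**Figure D4:**
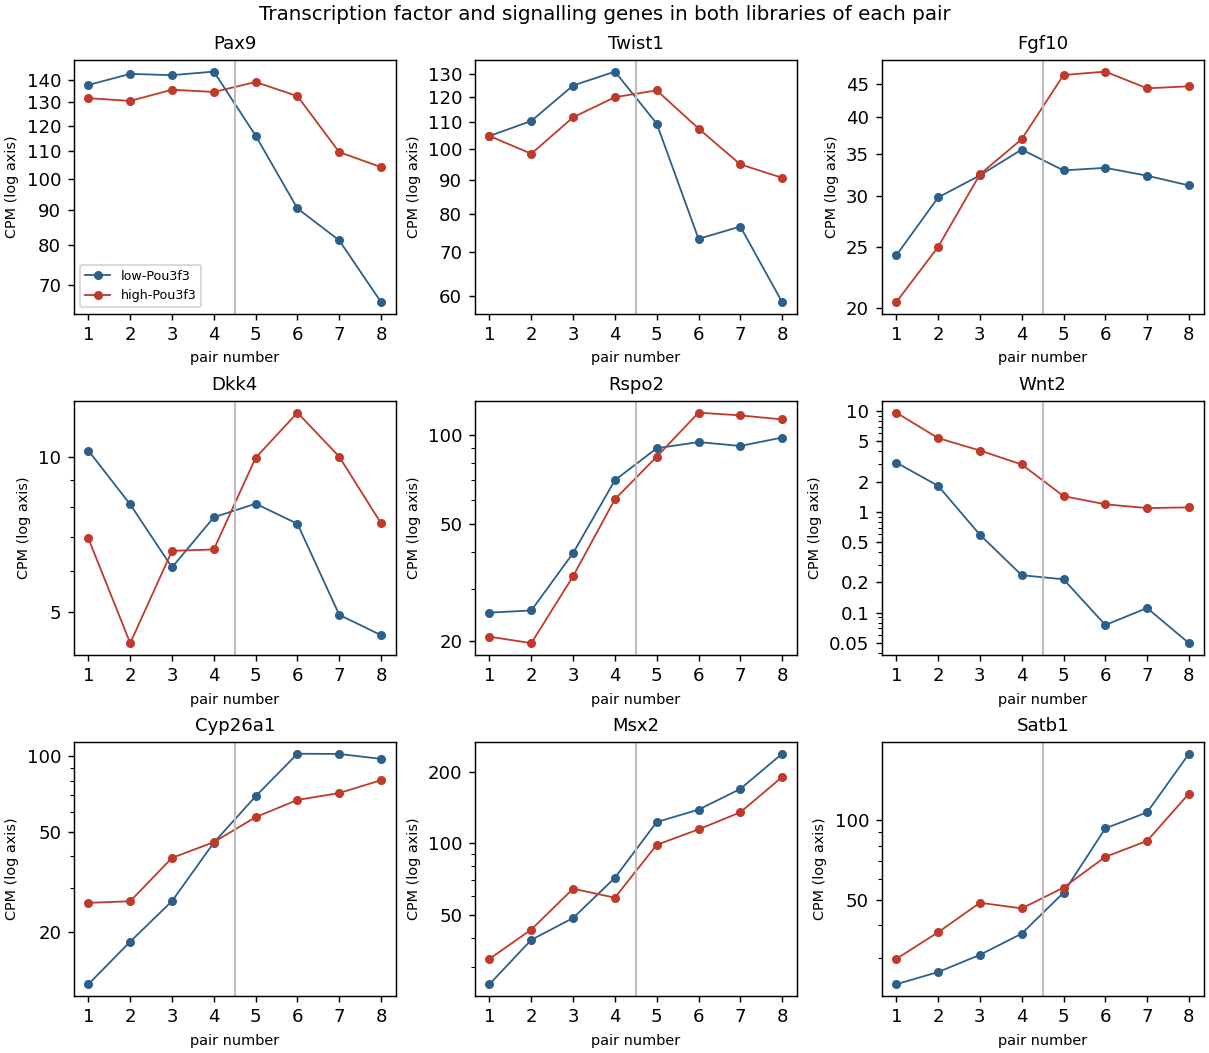
Transcription factor and signalling genes in CPM (log axis) in the low-Pou3f3 (blue) and high-Pou3f3 (red) library of each pair; each point is 1 library and the grey line parts the flow cells. The red line of Pax9 ends above the blue one, at 104.3 against 66.0 CPM, and that of Cyp26a1 ends below it, at 80.2 against 97.5 CPM.

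In the ameloblast, odontoblast and bone lists 5 of 6, 9 of 11 and 7 of 10 slopes were negative, against 8127 of 16287 over all genes tested. The odontoblast and bone lists share Sp7, Bglap, Ibsp and Alpl, so their counts are not separate observations. Of the genes past the threshold in edgeR, Satb1 and Tgfb1 had a negative and Mmp13 a positive slope. Satb1, a chromatin organiser counted in the ameloblast list, measured 23.9, 26.5, 30.9, 37.2, 53.1, 93.3, 107 and 179 CPM in the low-Pou3f3 libraries. Its high-Pou3f3 libraries measured 29.8, 37.6, 48.7, 46.3, 55.6, 72.7, 83.6 and 126 CPM. Late values exceeded early ones in both groups, and the low-Pou3f3 library was the higher one from pair 6 on, a slope of -0.17 ± 0.025 (edgeR adjusted p = 0.012, up to 0.0844 without pair 2 or 8). It was the 1 of 6 tested ameloblast and enamel genes that passed, and the enamel matrix gene Ambn had a slope of 0.0070 ± 0.036 (edgeR adjusted p = 0.973). In the odontoblast and dentin list Tgfb1 passed of 11 genes in edgeR, and Phex and Tgfb1 in DESeq2, with a list median of -0.072, and Alpl, the alkaline phosphatase, had a slope of -0.13 ± 0.033 (0.0905 in edgeR, adjusted). Mmp13 (chromosome 9, 7272514 to 7283333), a collagenase, was the 1 of 10 bone genes that passed and had a positive slope against a list median of -0.058. It went from 2.15 to 122 CPM in the low-Pou3f3 and from 0.644 to 175 CPM in the high-Pou3f3 libraries of pairs 1 and 8, with the high-Pou3f3 library higher in pairs 7 and 8. The slope was 0.27 ± 0.046 (edgeR adjusted p = 0.0208, up to 0.128 without pair 2 or 8).

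Macrophage genes had negative slopes, most of which did not pass the test. Of 12 macrophage and leukocyte genes 2 passed, Mrc1, the mannose receptor, and C1qa, a complement component, each with a negative slope. All 12 slopes were negative (median -0.11, range -0.18 to -0.0075), against 8127 of 16287 over all genes tested. The summed level of the list was 81, 86.1, 99.2, 104, 137, 143, 171 and 179.6 CPM in the low-Pou3f3 and 92.7, 104, 117, 128, 85.5, 105, 136 and 147 CPM in the high-Pou3f3 libraries. It was higher in the high-Pou3f3 library in pairs 1 to 4 and lower in pairs 5 to 8. The log2 difference of the sums was 0.20 in pair 1 and 0.31 in pair 4, then -0.68 in pair 5 and -0.29 in pair 8. The change to negative thus fell between the flow cells, and neither flow cell ended lower than it began. Mrc1 measured 11.1 to 24.6 CPM in the low-Pou3f3 and 9.33 to 22 CPM in the high-Pou3f3 libraries, which overlapped, with a slope of -0.14 ± 0.023 (edgeR adjusted p = 0.0203, up to 0.129 without pair 2, 3, 7 or 8). C1qa measured 2.94 to 9.92 and 4.25 to 7.32 CPM, with a slope of -0.18 ± 0.034 (edgeR adjusted p = 0.0342, up to 0.142 without pair 2, 3, 6, 7 or 8). Within flow cells the slopes were -0.047 and -0.049 (edgeR adjusted p = 0.753 and 0.825).

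Osteoclasts, the bone-resorbing relatives of macrophages, gave the same sign without a call. All 13 osteoclast genes had a negative slope (median -0.10), 7 had an unadjusted p under 0.05 and 0 passed in edgeR or DESeq2, the nearest being the calcitonin receptor gene Calcr at -0.28 ± 0.073 (adjusted p = 0.111). Their summed level was 361, 318, 319, 338, 592, 1085, 1041 and 1272 CPM in the low-Pou3f3 and 350.2, 444, 422, 439.5, 371, 634, 738 and 869 CPM in the high-Pou3f3 libraries. The low-Pou3f3 libraries were the lower ones in pairs 2 to 4 and the higher ones in pairs 1 and 5 to 8. The log2 difference of the sums was -0.043 in pair 1 and 0.38 in pair 4, then -0.67 in pair 5 and -0.55 in pair 8. The drop thus fell between the flow cells, and neither flow cell ended lower than it began. Over all 16287 genes tested, 8127 had a negative slope and 1868 had an unadjusted p under 0.05, and genes of 1 cell type may move together. The defining genes Acp5, Ctsk and Mmp9 had slopes of -0.21 ± 0.057, -0.17 ± 0.054 and -0.19 ± 0.056 (edgeR adjusted p = 0.131, 0.189 and 0.157). What part these cells had in the slopes of other genes was not tested.

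Lists of the other cell types near a tooth held no gene past the threshold in edgeR or DESeq2. Skeletal muscle genes summed to 8.67 to 25.4 CPM in the low-Pou3f3 and 10.8 to 79.4 CPM in the high-Pou3f3 libraries over 15 tested genes, with a median slope of 0.071 and 1 at an unadjusted p under 0.05. The muscle regulator Myf5 came nearest, at 0.46 ± 0.13 (edgeR adjusted p = 0.156), from at most 1.51 CPM in any library. Oral cornifying epithelium genes summed to 97.3 to 1600.0 CPM in the low-Pou3f3 and 128 to 780.3 CPM in the high-Pou3f3 libraries, with pair 7 of the low-Pou3f3 libraries highest, and Krt4, a keratin gene of that epithelium, had a slope of -0.41 ± 0.20 (0.487 in edgeR, adjusted). Cartilage genes summed to 429.6 to 797 CPM in the low-Pou3f3 and 469.8 to 755 CPM in the high-Pou3f3 libraries, and erythroid genes to 22.3 to 145 CPM in the low-Pou3f3 and 15.6 to 148 CPM in the high-Pou3f3 libraries, each with the range shared by the groups. The members with the smallest p were Col9a3, a cartilage collagen chain (-0.055 ± 0.018), the embryonic globin gene Hbb-bh1, which had 0 counts in some libraries and for which no slope is given, Tubb3, a neuronal tubulin gene (-0.067 ± 0.021), Erbb3, a Schwann cell receptor gene (0.036 ± 0.015), and Vwf, an endothelial gene (-0.14 ± 0.067). Their edgeR adjusted p values were 0.2, 0.433, 0.191, 0.368 and 0.477. Cartilage had 4 of 13 genes at an unadjusted p under 0.05, erythroid cells 1 of 8, neurons 1 of 9, Schwann cells 2 of 8, endothelium 0 of 10 and cornifying epithelium 0 of 9. Over all genes tested it was 1868 of 16287.

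**Figure D5:**
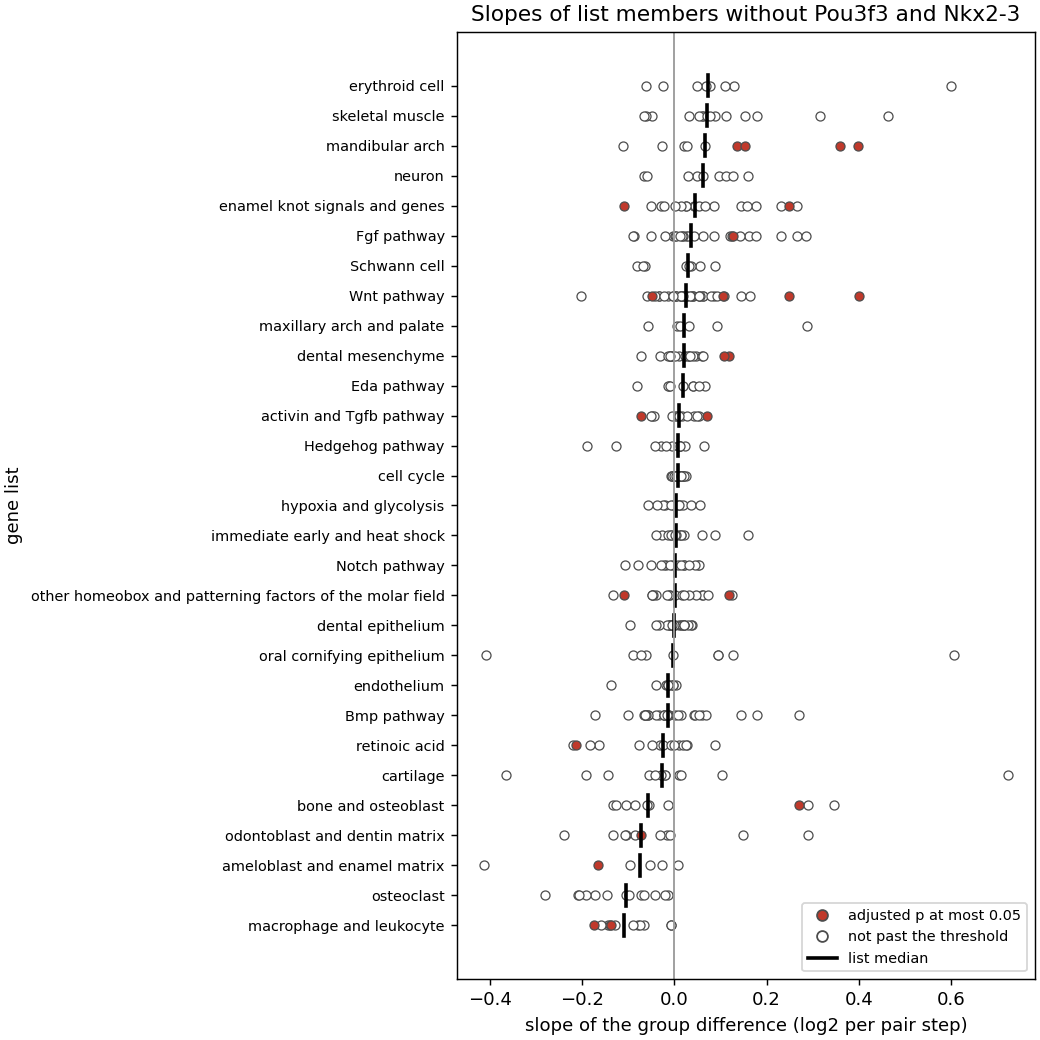
Slope of the within-pair difference (log2 per pair step, high-Pou3f3 minus low-Pou3f3) for the tested members of 29 gene lists, without Pou3f3 and Nkx2-3, ordered by list median (black bar); filled points passed edgeR's test at an adjusted p of 0.05 and open points did not. Filled points number 4 in the mandibular arch list, at the right of 0, and 2 in the macrophage list, at the left of 0, where all 12 members lie.

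Among genes averaging at least 50 counts, the largest positive slopes outside these lists belonged to genes of low to moderate level. Magel2 (chromosome 7, 62376979 to 62381640), an imprinted gene, measured 5.94, 6.32, 4.56, 4.86, 4.24, 3.5, 2.84 and 4.85 CPM in the low-Pou3f3 libraries. Its high-Pou3f3 libraries measured 3.47, 4.04, 2.83, 3.92, 4.73, 5.66, 7.91 and 11.1 CPM. Magel2 was lower in the high-Pou3f3 library of pairs 1 to 4 and higher in pairs 5 to 8, with a slope of 0.34 ± 0.040 (edgeR adjusted p = 0.00708, at most 0.0303 without any 1 pair) and 0.26 within flow cells (edgeR adjusted p = 0.484). Cntnap4, a neurexin-family adhesion gene, Lhfpl3 and Grp, which encodes gastrin-releasing peptide, also had fitted lines that crossed 0, with slopes of 0.36 ± 0.064, 0.31 ± 0.060 and 0.31 ± 0.056 (edgeR adjusted p = 0.0247, 0.0346 and 0.0275). Cntnap4 went from 3.23 to 1.1 CPM in the low-Pou3f3 and from 1.82 to 3.17 CPM in the high-Pou3f3 libraries of pairs 1 and 8, and Lhfpl3 from 0.852 to 2.77 and from 0.476 to 5.02 CPM. Grp measured 1.0 to 3.17 CPM in the low-Pou3f3 and 1.18 to 4.84 CPM in the high-Pou3f3 libraries. All 3 calls ended without pair 2, 3, 6, 7 or 8, with an edgeR adjusted p of up to 0.161, 0.15 and 0.0959.

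Cxcl5 (chromosome 5, 90759298 to 90761625), a chemokine gene, went from 9.73 to 0.25 CPM in the low-Pou3f3 and from 15.8 to 2.93 CPM in the high-Pou3f3 libraries of pairs 1 and 8. The high-Pou3f3 library was higher in all 8 pairs and the log2 difference grew from 0.69 to 3.28, a slope of 0.29 ± 0.047 (edgeR adjusted p = 0.0151). Sgpp2, a sphingosine-1-phosphate phosphatase gene, was lower in the high-Pou3f3 library of all 8 pairs, and that difference shrank from -1.77 in pair 1 to -0.25 in pair 8. Its slope was 0.29 ± 0.044 (edgeR adjusted p = 0.012). Alpk2, an alpha kinase gene, measured 1.57 to 8.71 CPM in the low-Pou3f3 and 5.47 to 10.1 CPM in the high-Pou3f3 libraries, with a slope of 0.28 ± 0.042 (edgeR adjusted p = 0.012), and Dbpht2 measured 1.23 to 4.21 and 0.308 to 3.69 CPM, with 0.31 ± 0.046 (0.012). All 4 calls ended without pair 2 or 8 (edgeR adjusted p up to 0.0695, 0.0844, 0.0791 and 0.0869).

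Under the same minimum, genes with the largest negative slopes were mostly those whose fitted increase along the order was steeper in the low-Pou3f3 libraries. Pla2g7 (chromosome 17, 43567994 to 43612202), which inactivates platelet-activating factor, differed from them, since its level dropped in the high-Pou3f3 libraries. It measured 44.8, 37.5, 38, 27.2, 16.9, 14.8, 15.53 and 13.9 CPM there. In the low-Pou3f3 libraries it measured 11.1, 9.8, 10.1, 6.45, 7.6, 11.9, 14.8 and 12.3 CPM. The high-Pou3f3 library stayed higher in all 8 pairs, by 2.01 on the log2 scale in pair 1 and 0.14 in pair 8, with the drop between pairs 4 and 6. The slope was -0.33 ± 0.044 (edgeR adjusted p = 0.0118, at most 0.0453 without any 1 pair) and -0.16 within flow cells (edgeR adjusted p = 0.573). Ptger4, a prostaglandin E2 receptor gene, also had lower late values in the high-Pou3f3 libraries, from 4.51 to 2.09 CPM, against 1.97 to 3.1 CPM in the low-Pou3f3 libraries of pairs 1 and 8. Its slope was -0.29 ± 0.042 (edgeR adjusted p = 0.012, up to 0.062 without pair 2 or 8).

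Gpr115, an adhesion receptor gene, went from 1.5 to 85.6 CPM in the low-Pou3f3 and 1.54 to 36.7 CPM in the high-Pou3f3 libraries of pairs 1 and 8. The log2 differences were 0.031 and 0.13 in pairs 1 and 2, and the low-Pou3f3 library led from pair 5 on, a slope of -0.30 ± 0.056 (edgeR adjusted p = 0.0313, up to 0.109 without pair 2, 3, 7 or 8). Col6a5, a collagen VI chain gene, went from 0.50 to 15.54 CPM in the low-Pou3f3 and 0.811 to 11.4 CPM in the high-Pou3f3 libraries, with a slope of -0.42 ± 0.086 (edgeR adjusted p = 0.045, up to 0.172 without pair 2, 3, 5, 6, 7 or 8). P2rx2, an ATP-gated channel gene, had slope -0.37 ± 0.052 (edgeR adjusted p = 0.0118, and 0.062 without pair 8). It went from 0.588 to 4.3 CPM in the low-Pou3f3 libraries and stayed between 2.16 and 4.07 CPM in the high-Pou3f3 libraries. Ppp2r2c, a regulatory subunit gene of protein phosphatase 2A, went from 0.559 to 10.2 CPM in the low-Pou3f3 and 0.672 to 5.42 CPM in the high-Pou3f3 libraries, and Rcan2, a calcineurin regulator gene, from 3.2 to 25.8 CPM in the low-Pou3f3 and 3.97 to 15.4 CPM in the high-Pou3f3 libraries. Their slopes were -0.37 ± 0.072 and -0.20 ± 0.029 (edgeR adjusted p = 0.0359 and 0.0118), up to 0.175 without pair 2, 3, 6, 7 or 8 and up to 0.0563 without pair 2 or 8.

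The remaining 4 genes of this set were Aox3, an aldehyde oxidase gene, Fam46a, a noncanonical poly(A) polymerase gene, Fat3, an atypical cadherin gene, and Adam23, a gene of the ADAM family. In each of them the high-Pou3f3 library was higher in pairs 1 to 4 and lower in pair 8. The slopes were -0.27 ± 0.056, -0.23 ± 0.037, -0.23 ± 0.047 and -0.20 ± 0.038 (edgeR adjusted p = 0.045, 0.0145, 0.0445 and 0.0316). In pair 8 the low-Pou3f3 library measured 10.7, 54, 33.9 and 19.8 CPM and the high-Pou3f3 library 6.5, 42.2, 25.5 and 14 CPM. The calls ended without pair 2, 3, 5, 6, 7 or 8 for Aox3 (edgeR adjusted p up to 0.298), without pair 8 for Fam46a (0.118), and without pair 2, 3, 6, 7 or 8 for Fat3 and Adam23 (up to 0.194 and 0.183). Of the 38 named genes past the threshold, 12 had the other sign in pairs 1 to 4 alone, 2 in pairs 5 to 8 alone and 5 within lanes, and 14 passed without the pair block and 28 as a step between flow cells (edgeR).

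Beyond the naming rule, Tfap2b, Spnb1, Cxcr7, Myh14 and Irx5 were the other genes that passed whichever pair was left out, and they were chosen after their values were seen. Tfap2b, a transcription factor gene of the neural crest, measured 353, 352, 240.2, 199, 144, 104, 80.7 and 55.1 CPM in the low-Pou3f3 libraries. Its high-Pou3f3 libraries measured 409, 357, 282, 250.2, 194, 181, 158 and 116 CPM. Late values were lower than early ones in both groups, and the high-Pou3f3 library was higher in all 8 pairs, a slope of 0.15 ± 0.017 (edgeR adjusted p = 0.00657). Spnb1, a beta spectrin gene, had slope 0.20 ± 0.022 (edgeR adjusted p = 0.00657), going from 21.3 to 52.7 CPM in the low-Pou3f3 and from 12.7 to 71.7 CPM in the high-Pou3f3 libraries of pairs 1 and 8. Negative slopes were found for Myh14, a nonmuscle myosin heavy chain gene (-0.10 ± 0.013), Irx5, an Iroquois homeobox gene (-0.16 ± 0.023), and Cxcr7, an atypical chemokine receptor gene (-0.084 ± 0.0100), with edgeR adjusted p values of 0.00999, 0.0118 and 0.00715. Myh14 was higher in the low-Pou3f3 library of all 8 pairs, at 35.7 against 33 CPM in pair 1 and 106 against 63.2 CPM in pair 8. Irx5 went from 13.5 to 47.2 CPM in the low-Pou3f3 libraries, against 20.1 to 33.2 CPM in the high-Pou3f3 libraries. Cxcr7 was higher in the high-Pou3f3 library of pairs 1 to 4 and lower in pairs 5 to 8, by 0.33 in pair 1 and -0.21 in pair 8 on the log2 scale.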

How the data were processed

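Poly(A) RNA of 16 first molar germ libraries was sequenced as 100 bp read pairs from a TruSeq V2 kit, per the labels' protocols. The authors deposited whole-number counts per gene symbol, 23337 genes and 5 summary lines per library. The submitters' processing notes name mm10, HTSeq 0.5.3p9, TopHat2 2.0.6 and Bowtie2 2.0.2, while annotation and strand setting were not given in the sources used. The summary lines (12.6% to 15.1% on no feature, 0.955% to 1.15% ambiguous) were left out.

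Genes reaching 0.269 CPM (10 counts at the median depth) in at least 2 libraries were kept, 16287 in all. The model held pair, group, and group times centred pair number, and its last term was tested by edgeR 4.0.16 under R 4.3.3 (TMM, quasi-likelihood F test, Benjamini-Hochberg over all genes). The SE is the slope divided by the square root of F. Log2 CPM used a prior count of 2, and CPM values are counts over gene-count totals. On simulated data with 200 changed genes of 16287, slopes of 0.1 and 0.2 log2 per pair were recovered in 57% and 89%, with 7 unchanged genes called. The changed genes were drawn from those averaging at least 50 counts. The simulation had straight slopes and independent libraries, with no embryo effect and no step in the difference between flow cells. These shares therefore need not hold for the real libraries. DESeq2 1.42.0 was an alternative.

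A gene was named if it had 1 of the 12 largest slopes past the threshold in its direction among genes averaging at least 50 counts, or was among up to 4 members past it, by p, of 1 of 29 lists (otherwise the member with the smallest p); models without a symbol were skipped. The members, lists and alternatives were chosen with earlier results of these data known. Deviations from the group means of the upper and lower library of an embryo, which the labels pair, correlated at 0.179 to 0.389. The best match of a library had the same embryo number for only 5 embryos. Xist was at 431.8 and 542.3 CPM in pair 5, while pair 1, labelled with the same embryos, was at 1499 CPM or more. These values do not settle whether the labels pair the libraries correctly. With 1 library per tooth label and stage, a p-value measures the scatter of the pair differences about a straight line. That scatter mixes differences between embryos, dissection and technical variation, and any departure from a straight line. By the labels each embryo gave both an upper and a lower library, so the pairs are not independent sets of embryos. Gene positions and promoters came from RefSeq on GRCm38.p6, and 158 of the 159 genes past the threshold had a position. Some named genes are not reported here.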

Additional observations from a re-analysis of the deposited data

Results flagged for a closer look

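The slope itself differed between pairs 5 to 8 and pairs 1 to 4 for 20 genes (edgeR's quasi-likelihood F test of the difference of slopes, Benjamini-Hochberg adjustment; 15 with the larger slope in pairs 5 to 8 and 5 in pairs 1 to 4; 1172 at an unadjusted p under 0.05), and 0 of them were among the 159 genes with a slope over all pairs. The 6 genes given here were chosen after their values were seen. Hey2, a transcription factor gene of the Notch pathway, had a difference of slopes of 0.919 log2 per pair step (edgeR adjusted p = 0.00239). Its low-Pou3f3 libraries measured 5.56, 6.95, 12.2, 15.2, 20.1, 21.3, 25.6 and 22.4 CPM and its high-Pou3f3 libraries 11.4, 7.51, 9.31, 6.28, 11.7, 16.2, 18.9 and 20.3 CPM. The high-Pou3f3 library lost ground over pairs 1 to 4 (slope -0.74) and regained part of it over pairs 5 to 8 (0.18). It was the higher one in pairs 1 and 2 and the lower one in pairs 3 to 8. Cyp26c1, another gene for a retinoic acid degrading enzyme, differed by 0.843 (edgeR adjusted p = 0.02), at 13.4, 35.2, 64.2, 98.3, 151, 161, 192 and 133 CPM in the low-Pou3f3 and 92, 87.3, 115, 124, 212, 249.9, 263 and 251 CPM in the high-Pou3f3 libraries. Myb, a transcription factor gene, differed by 0.65 (edgeR adjusted p = 0.00776), with slopes of -0.39 in pairs 1 to 4 and 0.26 in pairs 5 to 8. Stac, Spock1, which encodes a proteoglycan, and Vat1l differed by 0.656, 0.525 and 0.633 (edgeR adjusted p = 0.00268 for each), all with a negative slope in pairs 1 to 4 and a positive one in pairs 5 to 8. Tooth label and flow cell cannot be told apart in this difference. By Dixon's criterion, which chance passes in about 1 of 20 groups, 0 of 39 sets of 8 pair values (the log2 differences of the 38 named genes and the spread within pairs) had a pair apart. Of 58 sets of list sums over the 8 libraries of a group 5 had a library apart. The oral cornifying list was at 1600.0 CPM in the low-Pou3f3 library of pair 7 (others up to 420.6), skeletal muscle at 79.4 CPM in the high-Pou3f3 library of pair 4 (others up to 40.3), dental epithelium at 5759 CPM in the high-Pou3f3 library of pair 1 (others from 6463), and erythroid genes at 144.6 and 147.5 CPM in the low-Pou3f3 and high-Pou3f3 library of pair 1 (others up to 62.7 and 70.6). Of 116 sets of gene levels 9 did. In low-Pou3f3 libraries these were Krt4 at 364.2 CPM in pair 7 (others up to 96.6), Adam23 at 19.8 and Ppp2r2c at 10.2 CPM in pair 8 (others up to 10.9 and 5.12), Hbb-bh1 at 1.21 CPM in pair 1 and Xist at 431.8 CPM in pair 5 (others from 1610.0). In high-Pou3f3 libraries they were Vwf at 29.7 CPM in pair 7 (others up to 12.8), Erbb3 at 45.4 CPM in pair 3 (others up to 39.8), Hbb-bh1 at 1.203 CPM in pair 1 and Xist at 542.3 CPM in pair 5 (others from 1499). Levels that change along the order put the first or last pair apart more readily.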

How the results depend on the processing

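The count of 159 genes (72 positive, 87 negative) was 159 with DESeq2 size factors in edgeR, 190 with no filter on low counts, 156 with a filter at 8 libraries and 162 with library totals, an alternative chosen after seeing the data. It was 268 with DESeq2's Wald test (127 positive, 141 negative; 1579 genes had no adjusted p), 34 without the pair block (18 and 16), 353 as a step between flow cells (114 and 239) and 130 in pairs 1 to 4 alone (91 and 39). The slope within lanes called 2 genes, both positive (Krt6b and 4933409K07Rik), and 0 negative. The slope within flow cells, pairs 5 to 8 alone and the replicate block with the embryo in place of the pair called 0 genes in each direction. The embryo block compares the group difference between the flow cells and uses no order within a flow cell. The lowest edgeR adjusted p under that block was 0.0669 over all genes and 0.251 over the 38 named ones, which kept their sign. With 1 pair left out in turn, the count ran from 18 to 401, with 8 to 176 positive and 10 to 225 negative genes, and 4 of the 38 named genes (Dlx6as1, Dlx5, Magel2 and Pla2g7) passed throughout. Correlation of the spread within a pair with pair number was -0.186 over genes with a mean count of at least 50, -0.0952 with 1 minus Spearman's correlation as the measure, -0.161 without the 2 pairs farthest from the median, and -0.257 to 0.192 with 1 pair left out, -0.257 without pair 1 and -0.173 without pair 7. Slopes that changed sign in pairs 1 to 4 alone were -0.083 for Cntnap4, 0.13 for Col6a5, 0.16 for Ppp2r2c, 0.011 for Pla2g7, 0.030 for Gpr115, 0.16 for Aox3, 0.011 for Fat3, 0.0082 for Adam23, -0.0030 for Pax9, -0.036 for Twist1, 0.013 for Satb1 and 0.0066 for Mrc1. In pairs 5 to 8 alone they were 0.0048 for C1qa and -0.010 for Fgf10, and within lanes -0.27 for Lhfpl3, 0.085 for Fat3, 0.13 for Adam23, -0.12 for Dkk4 and 0.11 for C1qa. The cause of these changes was not tested. Fewer pairs or added terms leave fewer degrees of freedom, but the embryo block and the fit without the pair block had neither. Counting error limits Wnt2, Col6a5 and Gbx2, whose lowest libraries had 2, 7 and 9 counts.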

Other observations

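Further genes past the threshold, chosen after their values were seen, include regulators and signals outside the lists. In Sox6, an SRY-box transcription factor gene, the log2 difference of the high-Pou3f3 library went from 0.81 in pair 1 to -0.22 in pair 8, a slope of -0.15 ± 0.022 (edgeR adjusted p = 0.012, and 0.0638 without pair 2). Runx1, a transcription factor gene, and Scube1, a secreted protein gene, differed by 0.67 and 0.80 in pair 1 and by 0.045 and 0.034 in pair 8, with slopes of -0.10 ± 0.018 and -0.11 ± 0.015 (edgeR adjusted p = 0.0319 and 0.0118). Sp9, a zinc finger gene, went the other way, from -1.66 to 0.17, with a slope of 0.23 ± 0.043 (edgeR adjusted p = 0.0292). Ednrb, the endothelin B receptor gene, went from -0.028 to 0.95 (slope 0.14 ± 0.026, edgeR adjusted p = 0.0289), Pthlh, the parathyroid hormone-like hormone gene, from 0.070 to 0.65 (0.088 ± 0.016, 0.0277), and Figf, a vascular endothelial growth factor gene, from 0.34 to 1.41 (0.17 ± 0.031, 0.03). The calls ended without pair 2, 3, 6, 7 or 8 for Runx1, Ednrb and Pthlh (edgeR adjusted p up to 0.128, 0.15 and 0.195), without pair 2, 3, 7 or 8 for Sp9 and Figf (up to 0.0842 and 0.195), and without pair 8 for Scube1 (0.0502).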
